A study of Mus musculus with 9 samples.

Results

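The SR and hnRNP splicing regulators described here are the 45 genes, of 14444 in the deposited table, whose symbol belongs to the Srsf, Hnrnp, Celf, Rbfox, Nova or Ptbp families. Members were chosen by symbol, with earlier results of these data known. They were 11 Srsf, 20 Hnrnp, 6 Celf, 3 Rbfox, 2 Nova and 3 Ptbp genes. Processed pseudogenes carrying "-ps" in their symbol were left out. All 45 were present in the table and all 45 entered every fit.

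RNA was sequenced from mouse prefrontal cortex at postnatal week 5 to 8, as stranded total RNA after removal of ribosomal RNA, in 9 libraries. The groups were 3 libraries each of wild-type mice given saline, of Shank3-deficient mice given saline and of Shank3-deficient mice given UNC0642, an inhibitor of the histone methyltransferases EHMT1 and EHMT2, by intraperitoneal injection of 1 mg/kg once a day for 3 days. The labels name neither the Shank3 allele nor the source animal of each library. The 3 libraries of a group may or may not be 3 animals, and a p-value here reflects only how far libraries scatter, part of which can be technical. In bulk tissue, fewer cells of a type and less RNA per cell cannot be told apart.

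SR proteins (Srsf) bind exonic enhancers through RNA recognition motifs and recruit the spliceosome through arginine-serine domains that SRPK and CLK kinases phosphorylate. The hnRNP proteins often act in opposition to them, as when hnRNP A1 or PTB represses an exon, and many members of both groups tune their own level by splicing in or out an exon that sends the transcript to nonsense-mediated decay. In neurons, the Rbfox, Nova and Celf proteins direct neuron-specific exons, and the replacement of Ptbp1 by Ptbp2 is part of neuronal differentiation.

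The recovered libraries held 12035098 to 16165483 reads each. The deposited values carry an adjustment that makes the mean log2 value of UNC0642 replicates 2 and 3 joined with wild type equal, gene by gene, to that of the saline mutant libraries with UNC0642 replicate 1. Whole reads from before this adjustment were recovered for all 14444 genes, and each comparison is therefore given in both the deposited values, which are the main reading, and the recovered reads. In the recovered reads, the first principal component, with 52.3% of the variance, placed UNC0642 replicate 3 beside wild type, and replicates 1 and 2 of that group beside the saline mutants. Levels are given as RPM, the recovered reads of a gene per 1000000 reads of its library after TMM scaling (factors 0.9799 to 1.027), and between genes as RPKM, the same per kilobase of exon. Genotype and this division are told apart only through that 1 library. Gm5643, a pseudogene copy of Hnrnpa1, divided the libraries in the same way, with 0 to 1 reads in wild type, 0 in UNC0642 replicate 3 and 40 to 76 in the other 5 libraries of mutants. The label of UNC0642 replicate 3 is therefore in doubt, and whether it holds was not tested. Its values are given under that label, and every UNC0642 mean and the fit with the division as a term rest on it.

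Shank3 itself had 301.2, 308 and 347.7 RPM in wild type, 339.5, 350.4 and 324.5 in saline mutants and 294.1, 296.2 and 315.7 with UNC0642. Wild type overlapped both mutant groups, while every saline mutant library lay above every UNC0642 one (log2 difference -0.16, SE 0.08, limma-voom adjusted p = 0.971). The gene was called in no comparison, with a log2 difference of 0.09 (SE 0.08, limma-voom adjusted p = 0.462) between saline mutant and wild type in the recovered reads. Ehmt1 and Ehmt2, the targets of UNC0642, were called in no comparison either, with log2 differences of -0.13 (SE 0.09, limma-voom adjusted p = 0.315) and 0.23 (SE 0.08, adjusted p = 0.0648) between saline mutant and wild type. With the allele not given, a count over the whole gene does not check a deletion of part of it.

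The promoters of 4 SR protein genes are shown because they are the SR genes called lower in the saline mutants in the recovered reads. The sequences are 150 bases upstream of the start, from RefSeq on GRCm38.p6, written 5′ to 3′ on the gene's strand, with GC boxes (GGGCGG or its complement CCGCCC) and CCAAT boxes (CCAAT or ATTGG) in capitals. Srsf1 lies at chr11:88047223-88047372 (plus), Srsf6 at chr2:162931358-162931507 (plus), Srsf7 at chr17:80207306-80207455 (minus) and Srsf10 at chr4:135855921-135856070 (plus).
Srsf1: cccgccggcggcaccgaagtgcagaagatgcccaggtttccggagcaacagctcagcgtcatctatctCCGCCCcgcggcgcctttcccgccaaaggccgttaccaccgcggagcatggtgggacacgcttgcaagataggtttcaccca
Srsf6: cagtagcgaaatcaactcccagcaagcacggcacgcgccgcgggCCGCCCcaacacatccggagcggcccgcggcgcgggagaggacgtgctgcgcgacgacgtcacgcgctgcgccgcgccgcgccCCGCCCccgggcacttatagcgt
Srsf7: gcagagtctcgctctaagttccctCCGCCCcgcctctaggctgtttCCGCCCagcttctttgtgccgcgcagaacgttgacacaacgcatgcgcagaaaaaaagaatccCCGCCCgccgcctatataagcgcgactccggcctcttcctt
Srsf10: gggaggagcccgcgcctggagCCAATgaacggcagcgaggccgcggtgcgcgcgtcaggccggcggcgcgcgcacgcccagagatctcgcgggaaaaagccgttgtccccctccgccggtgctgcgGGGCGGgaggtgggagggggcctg

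All 4 hold a GC box in this window, and 10 of the 11 Srsf genes hold one within 250 bases before to 50 bases after the start. Both strands were searched. Of the 45 members, 40 matched an entry of the promoter table, with 68 promoters in all. A GC box was in 69.1% of these promoters and in 35.6% of all 32817 promoters of the table. The CCAAT box was in 44.1% against 37.4%, and the ETS motif CCGGAAG in 14.7% against 8.86%. The E-box CACGTG was in 8.82% against 7.15%, the cAMP response element TGACGTCA in 5.88% against 1.79% and TATAAA in 10.3% against 13.6%. Some members have several promoters among the 68, and some of these overlap, so a single site can count repeatedly. The 4 promoters with the cAMP response element belong to 2 members. By member, a GC box was found in 32 of 40 and a CCAAT box in 22. These matches describe the letters of the window only.

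The annotation also sets the families apart by transcript type. In GENCODE M21, 25 of the 45 members (55.6%) have at least 1 transcript annotated to nonsense-mediated decay, against 27.9% of 13228 measured protein-coding genes. The share was 9 of 11 for Srsf and 3 of 3 for Ptbp, 10 of 20 for Hnrnp and 3 of 6 for Celf, and 0 of 3 for Rbfox and 0 of 2 for Nova. A retained-intron transcript is annotated for 32 members (71.1%), against 57.8% of the same genes. The read counts are per gene and do not divide reads among these transcripts.

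Per kilobase of exon, the splicing regulators stood high among the genes of the cortex. Their median level in wild type was 25.2 RPKM, against 5.61 over 13869 measured genes with a length, and 42 of 45 lay above that median. The exceptions were Ptbp3, Hnrnpr and Hnrnpa1. Exon length here is the union of all annotated exons of a gene, so orders in RPKM also depend on the annotation. That union is 22199 bases for Hnrnpr, at a mean of 82.54 RPM in wild type, and 25884 bases for Celf2, at 462.5 RPM. Celf4, a regulator of neuronal mRNA, was the highest member at 84.2, 76 and 85.3 RPKM in the 3 wild-type libraries. Its lowest library lay above the highest library of Rbfox1, the second member, at 65.1, 64.6 and 53.6.

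**Figure D1:**
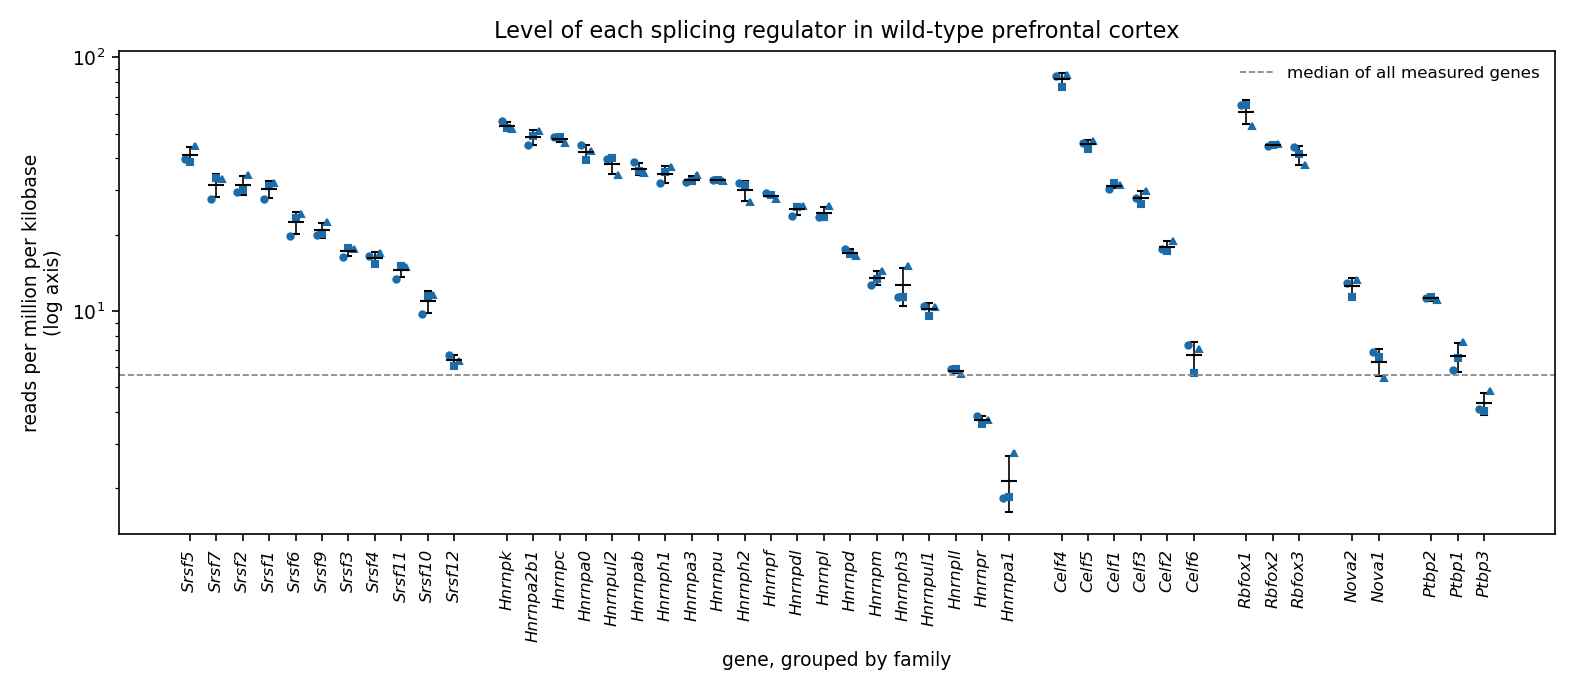
RPKM (log axis) for each member in the 3 wild-type libraries (points), with the mean and SD (bars) and the median over 13869 measured genes (dashed line). Celf4 is highest at 81.8 ± 5.1 (SD, n = 3) and Hnrnpa1 lowest at 2.14 ± 0.533, and 3 members lie below the dashed line.

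Among the SR proteins, Srsf5 was the most abundant per kilobase at 39.7, 38.8 and 44.7, and Srsf12 the least at 6.73, 6.07 and 6.36. The neighbours in the order Srsf7, Srsf2 and Srsf1, at means of 31.4, 31.3 and 30.3, overlapped in their libraries. Srsf5 lay above Srsf7, and Srsf10 above Srsf12, with no overlap. Among the hnRNPs, Hnrnpk, which binds C-rich RNA, led at 56.1, 52.6 and 52.2, just above Hnrnpa2b1 at 45.1, 49.1 and 51.2. Hnrnpa1 was the lowest at 1.83, 1.84 and 2.76.

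The value of Hnrnpa1 is limited by its copies. Of its exonic windows of 50 bases, 46.7% occur exactly in other annotated genes, of which 20 are pseudogenes, so reads could be split among copies or left uncounted. A window of its coding sequence (bases 187 to 236, chromosome 15) is shown because it recurs in 6 other genes, beside one of Hnrnpa2b1 (coding bases 6 to 55, chromosome 6) that recurs in 0. Other members with more than 30% of windows shared were Srsf4 (65.4%), Hnrnpf (61.9%), Srsf2 (31.8%), Srsf3 (31.5%) and Nova2 (30.8%). In that order, 0, 7, 0, 4 and 20 of their 1, 11, 2, 5 and 458 sharing genes were pseudogenes. Windows were matched on both strands, so transcripts of the opposite strand also count.
Hnrnpa1: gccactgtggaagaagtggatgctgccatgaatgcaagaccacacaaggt
Hnrnpa2b1: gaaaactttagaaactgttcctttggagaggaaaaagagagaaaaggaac

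The neuronal regulators ordered differently within each family. All 3 Rbfox genes were high, with Rbfox1 above Rbfox2 (44.5, 45 and 45.5) and Rbfox2 above Rbfox3 (44.3, 41.5 and 37.5), although the last pair differed by only 44.5 against 44.3 at their nearest libraries. Nova2, at 12.9, 11.4 and 13.2, lay above Nova1, at 6.88, 6.59 and 5.46, without overlap. Ptbp2, the neuronal PTB, had 11.2, 11.4 and 11 RPKM, above Ptbp1 at 5.83, 6.51 and 7.56, which most non-neuronal cells use, and above Ptbp3 at 4.09, 4.03 and 4.83. The Celf genes spread from Celf4 to Celf6, at 7.33, 5.71 and 7.07, and every neighbouring pair in the family was separated in its libraries.

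Celf4 and Hnrnpk, the highest of their families, overlapped across the groups. Celf4 had 722.9, 652.1 and 732.2 RPM in wild type, 722.1, 721.7 and 678.6 in saline mutants and 706.9, 652.9 and 769.6 with UNC0642. Hnrnpk had 362.7, 340.2 and 337.4, then 353.4, 351 and 373.9, then 361.7, 380.3 and 346.3. The ranges of the 3 groups overlapped in both genes.

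Srsf5 had 158.4, 154.9 and 178.3 RPM in wild type, 167.2, 174.1 and 171.6 in saline mutants and 193.7, 193.4 and 157.3 with UNC0642, so that UNC0642 replicate 3 lay apart from replicates 1 and 2. Ptbp2 had 103.2, 104.7 and 100.7, then 98.15, 94.16 and 104.7, then 96.4, 96.19 and 107.8. Ptbp1 had 27.64, 30.84 and 35.84, then 30.5, 28.26 and 28.14, then 27.99, 33.13 and 30.46. Neither PTB gene separated any pair of groups.

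Nova1 had 60.2, 57.61 and 47.74 RPM in wild type, 52.41, 51.5 and 52.89 in saline mutants and 48.53, 50.77 and 61.44 with UNC0642. Nova2 had 107.9, 95.44 and 110.5, then 91.09, 105.8 and 92.38, then 88.87, 93.12 and 114.3. In both Nova genes UNC0642 replicate 3 was the highest of all 9 libraries. Rbfox2 had 362.5, 366.4 and 370, then 340, 383.2 and 329.6, then 342.4, 313 and 361.8. Rbfox3 had 257.6, 241.6 and 218.4, then 251.8, 263.8 and 261.1, then 246.4, 250.3 and 226.5. In Rbfox2 all UNC0642 libraries lay below all wild-type ones, without a call, and in Rbfox3 these groups overlapped.

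Hnrnpa1 had 5.766, 5.791 and 8.687, then 6.18, 4.094 and 6.981, then 5.319, 7.007 and 6.732, with all groups overlapping. Srsf12 had 21.2, 19.1 and 20.03 RPM in wild type, which overlapped both mutant groups described later.

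The comparison of saline mutant with wild-type libraries addresses what Shank3 deficiency changes in the cortex. In the deposited values no member was called at an adjusted p under 0.05 (limma on log2 of the value plus 0.5), against 0% of all 14444 genes, and no member had an unadjusted p under 0.05 against 0.132% (19 genes). Hnrnph1, a hnRNP that binds G-rich RNA, had the smallest p, with deposited values of 171.9, 190.7 and 199.8 in wild type and 157.4, 187.2 and 164.3 in saline mutants. The groups overlapped, and the log2 difference was -0.14 (SE 0.10, limma adjusted p = 1). Next by p came Ptbp3 at -0.22, Srsf7 at -0.14, Srsf10 at -0.13, Srsf1 at -0.10 and Hnrnpa3 at -0.08, with unadjusted p from 0.160 to 0.294. For none of the 11 Srsf genes was the log2 difference above 0, with a median of -0.05 against 0.00 over all genes. Because the adjustment equalizes the 2 sets of libraries, these differences follow from where the UNC0642 libraries lie and carry no separate measurement of the saline mutants.

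In the recovered reads, 10 of the 45 members were called between saline mutant and wild type (limma-voom with Benjamini-Hochberg adjustment), 8 lower and 2 higher. The share of all genes called was 12.4%, with 5.71% higher and 6.71% lower, and 15.9% among the 9016 genes of at least 15 RPM. At an unadjusted p under 0.05 there were 14 members, against 32.3% of all genes. The 8 that fell were Ptbp3, the SR genes Srsf10, Srsf7, Srsf6 and Srsf1, and the hnRNP genes Hnrnph1, Hnrnpll and Hnrnpa3. The 2 that rose were Celf3 and Celf6.

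Ptbp3, a paralogue of the PTB repressor, had 30.61, 30.16 and 36.16 RPM in wild type, 19.5, 21.06 and 20.52 in saline mutants and 26.35, 21.45 and 30.52 with UNC0642. Every saline mutant library lay below every wild-type one, and UNC0642 replicate 3 lay within the wild-type range. The log2 fold change of saline mutant against wild type was -0.66 (SE 0.14, limma-voom adjusted p = 0.0182), the largest among the members.

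Srsf10, an SR protein that turns into a splicing repressor when dephosphorylated, had 68.17, 80.77 and 80.92 RPM in wild type, 54.49, 58.31 and 50.77 in saline mutants and 55.81, 55.99 and 69.15 with UNC0642. All saline mutant libraries lay below the wild-type ones, and UNC0642 replicates 1 and 2 lay among them. The log2 fold change was -0.49 (SE 0.11, limma-voom adjusted p = 0.0202).

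Srsf7, an SR protein with a zinc knuckle that also takes part in mRNA export, had 98.36, 118.7 and 117.2 RPM in wild type and 78.17, 92.25 and 85.19 in saline mutants. Its UNC0642 libraries, at 97.47, 87.71 and 103.9, lay 1 within the gap between those groups, 1 below it and 1 above. The log2 fold change of saline mutant against wild type was -0.38 (SE 0.10, limma-voom adjusted p = 0.0310).

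Srsf6 had 95.48, 111.8 and 115.4 RPM in wild type, 76.4, 93.1 and 82.29 in saline mutants and 89.94, 94.41 and 93.73 with UNC0642. Wild type and saline mutant were separated by little at their nearest libraries, 95.48 against 93.1. The log2 fold change was -0.36 (SE 0.10, limma-voom adjusted p = 0.0324).

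Srsf1, the founding SR protein, had 157.7, 178.2 and 182.6 RPM in wild type, 133.1, 153.5 and 136.7 in saline mutants and 150.2, 139.8 and 162.6 with UNC0642. The wild-type and saline mutant libraries did not overlap. The log2 fold change was -0.29 (SE 0.09, limma-voom adjusted p = 0.0485), and with upper-quartile factors in place of TMM the gene was no longer called.

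Hnrnph1 had 185.5, 205.8 and 215.6 RPM in wild type, 145.5, 173.1 and 151.9 in saline mutants and 173.7, 159.1 and 176.5 with UNC0642. No saline mutant library reached the lowest wild-type one. The log2 fold change was -0.37 (SE 0.09, limma-voom adjusted p = 0.0245), where the deposited values above gave -0.14.

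Hnrnpll, known in T cells for the splicing of the CD45 transcript, had 69.28, 68.67 and 65.97 RPM in wild type, 54.01, 55.93 and 55.5 in saline mutants and 57.2, 62.08 and 68.83 with UNC0642. Hnrnpa3 had 173.6, 174.7 and 184.6, then 149.9, 150.4 and 153.7, then 156, 157.7 and 158.7. In both genes the wild-type and saline mutant libraries were apart, and the UNC0642 libraries of Hnrnpa3 lay between them. The log2 fold changes were -0.30 (SE 0.09, limma-voom adjusted p = 0.0408) for Hnrnpll and -0.23 (SE 0.07, adjusted p = 0.0454) for Hnrnpa3, of whose windows 27.7% are shared with other genes.

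Celf3 and Celf6, of the CELF family of binders of GU-rich RNA, went the other way. Celf3 had 152.4, 144 and 163.3 RPM in wild type, 203.5, 185.7 and 182.7 in saline mutants and 185.7, 177.7 and 151.2 with UNC0642. Celf6 had 26.54, 20.68 and 25.59, then 31.94, 31.69 and 30.96, then 36.33, 30.24 and 33.07. For Celf6 all 6 mutant libraries lay above the 3 wild-type ones, while for Celf3 UNC0642 replicate 3 lay within the wild-type range. The log2 fold changes of saline mutant against wild type were 0.31 for Celf3 (SE 0.09, limma-voom adjusted p = 0.0411) and 0.39 for Celf6 (SE 0.12, adjusted p = 0.0446).

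**Figure D2:**
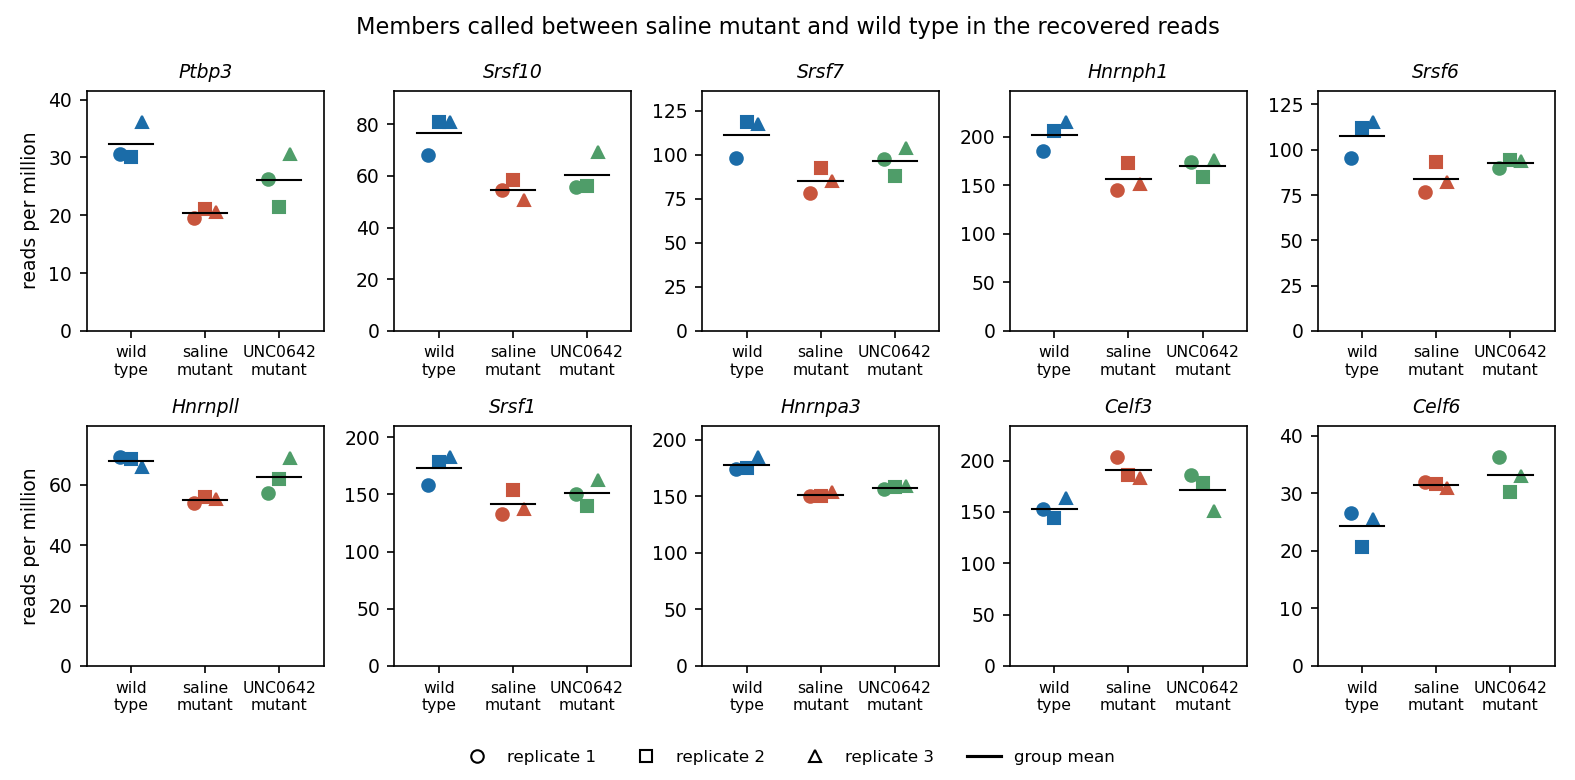
RPM of the 10 members called between saline mutant and wild type in the recovered reads, by library (marker shape gives the replicate) with the group mean (line), each axis starting at 0. In 8 panels the saline mutant libraries lie below the wild-type ones and in 2 panels, Celf3 and Celf6, above.

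The number of calls depended on single libraries. Without wild-type replicate 2, saline mutant replicate 1 or saline mutant replicate 3 there were 0 members called. All genes called then were 14, 18 and 25 of 14444. Without wild-type replicate 3 there was 1 member, against 403 genes, and without saline mutant replicate 2 there were 4, against 484. Leaving out wild-type replicate 1 or UNC0642 replicate 1 gave 8 members each, against 1758 and 1963 genes. Without UNC0642 replicate 2 there were 6, against 1592 genes. Without UNC0642 replicate 3 there were 13 members called, against 25.1% of all genes. With the division of the libraries as a term, 0 members were called, against 0% of all genes, and 0 members had an unadjusted p under 0.05, against 709 of all genes. In that fit the log2 differences of the 10 members had the same sign as before, and their limma-voom adjusted p lay between 0.975 and 0.998. Celf6 stood at 0.40 (SE 0.19), Srsf6 at -0.33 (SE 0.16), Hnrnph1 at -0.28 (SE 0.15) and Hnrnpa3 at -0.21 (SE 0.11). The others were smaller than without the term by more: Ptbp3 was at -0.28 in place of -0.66, Srsf10 at -0.18 in place of -0.49, Srsf7 at -0.21 in place of -0.38 and Srsf1 at -0.13 in place of -0.29. Hnrnpll was at -0.10 in place of -0.30, and Celf3 at 0.05 in place of 0.31.

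Of all 45 members, 19 had wild-type and saline mutant libraries that did not overlap, 13 of them lower and 6 higher in the saline mutants, against 40.6% of all genes. The count for members is 42.2% of them, near that share. The 9 without a call were Celf2, Srsf11, Rbfox1, Hnrnpu and Hnrnpd on the lower side and Celf5, Hnrnpab, Hnrnpf and Hnrnpul1 on the higher side. By family, 5 of 11 Srsf, 8 of 20 Hnrnp, 4 of 6 Celf, 1 of 3 Rbfox, 1 of 3 Ptbp and 0 of 2 Nova genes were apart in this way. The median log2 difference was -0.11 for Srsf, 0.03 for Hnrnp, 0.06 for Celf and -0.06 for all members, against 0.00 over all genes.

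**Figure D3:**
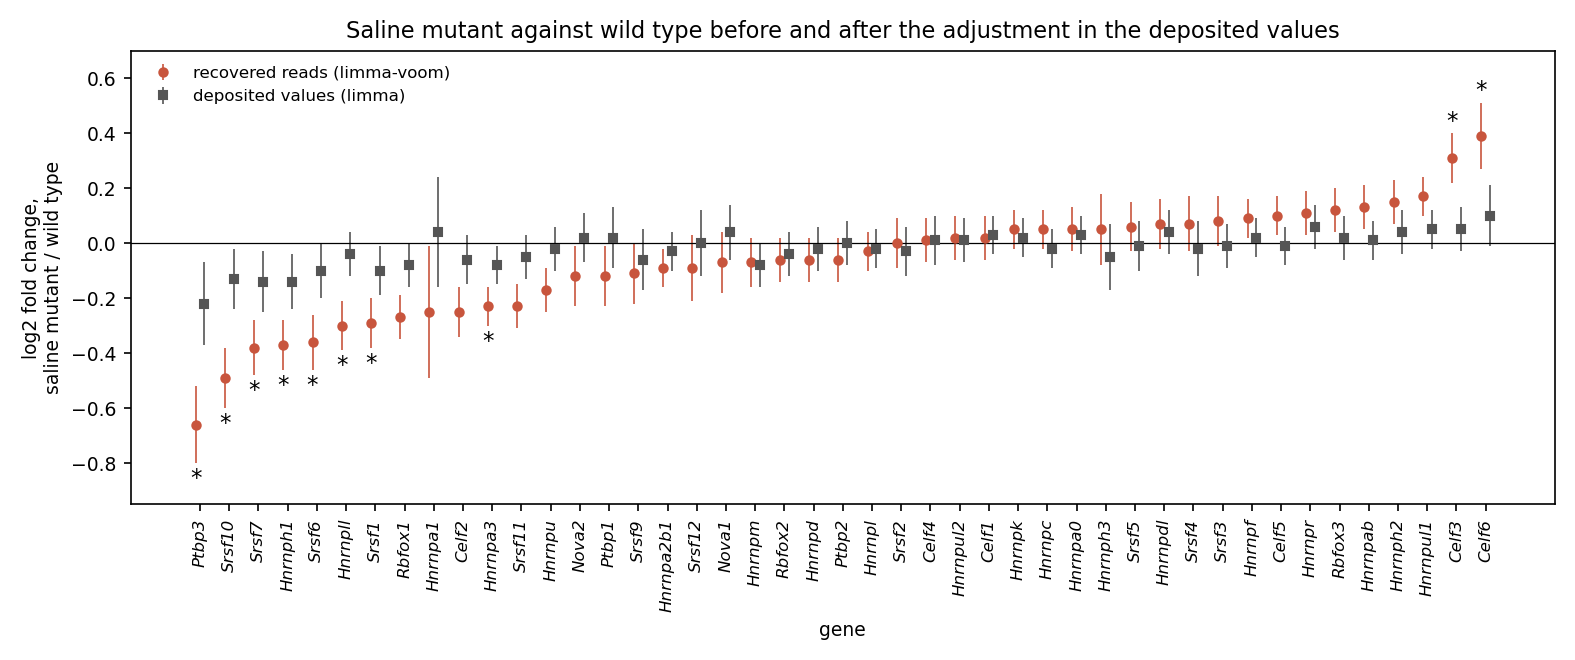
Log2 fold change of saline mutant against wild type with its SE for each of the 45 members, in the recovered reads (circles) and in the deposited values (squares), ordered by the former, and asterisks marking the 10 members called in the recovered reads. The circles run from -0.66 for Ptbp3 to 0.39 for Celf6, and the squares from -0.22 to 0.10.

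The UNC0642 libraries did not take 1 position between these groups. UNC0642 replicate 3 lay nearer the wild-type mean for 6 of the 10 called members, against 80.5% of the 1794 genes called overall. Replicate 1 lay nearer wild type for 2 of the 10 and replicate 2 for 1, against 8.08% and 10.2% of the called genes. The 4 members for which replicate 3 lay nearer the saline mutants were Celf6, Hnrnpa3, Srsf6 and Hnrnph1.

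The comparison of UNC0642 with saline in the mutants addresses what the inhibitor changes. No member was called in the deposited values (limma) or in the recovered reads (limma-voom), against 0% of all genes in each, and none with the division as a term, against 0%. At an unadjusted p under 0.05 there were 2 members in the deposited values against 1.95% of all genes, and 2 in the recovered reads against 3.73%. Srsf12, an SR protein gene of low level here, had the smallest p in the reads, at 19.74, 18.36 and 18.41 RPM with saline and 23.98, 20.41 and 26.41 with UNC0642. Its groups did not overlap, and the log2 difference was 0.32 (SE 0.12, limma-voom adjusted p = 0.971). In the deposited values Srsf12 gave 0.25 (SE 0.12, limma adjusted p = 1), and Celf6 gave 0.25 (SE 0.11, adjusted p = 1). Hnrnph2, Rbfox1, Srsf5 and Hnrnpdl followed at 0.13, -0.13, 0.13 and 0.10, with unadjusted p from 0.125 to 0.234. The adjustment moves UNC0642 replicate 1 with the saline mutants and replicates 2 and 3 with wild type, so it enters these differences. Celf6 had means of 31.53 RPM with saline and 33.22 with UNC0642, against 28.83 and 34.47 in the deposited values. Rbfox1 had 222.5 and 221.5 RPM, against 237.4 and 217.1. Ptbp3 gave 0.34 in the reads (SE 0.14, limma-voom adjusted p = 0.971). Next by p in the reads came Hnrnpll at 0.18, Srsf7 at 0.17, Celf3 at -0.16 and Srsf6 at 0.15, with unadjusted p of 0.0525, 0.103, 0.107 and 0.149. This comparison shares the saline mutant libraries with the one above.

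The third comparison, UNC0642 mutant against wild type, shares its groups with the other two. No member was called in either reading (limma, limma-voom), against 0% of genes in the deposited values and 0.0762% (11 genes) in the reads. With the division as a term no member was called against 0.0346%. At an unadjusted p under 0.05 there were 3 members in the deposited values against 8.57% of genes, and 9 in the reads against 19.2%. Celf6 had the smallest p in both, with a log2 difference of 0.45 in the reads (SE 0.12, limma-voom adjusted p = 0.124), 0.35 in the deposited values (SE 0.11, limma adjusted p = 0.576) and 0.46 with the division as a term (SE 0.15, limma-voom adjusted p = 0.839).

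In the deposited values Celf6 was followed by Rbfox1 at -0.21, Srsf10 at -0.22, Srsf12 at 0.25, Hnrnph2 at 0.17 and Hnrnph1 at -0.18, with limma adjusted p from 0.576 to 0.607. The adjustment, which moves wild type together with UNC0642 replicates 2 and 3, enters these differences too. In the reads Srsf10 stood at -0.35, Hnrnpa3 at -0.17 and Ptbp3 at -0.32, with limma-voom adjusted p from 0.152 to 0.213. Hnrnpdl had 114.3, 124.4 and 125.5 RPM in wild type, 123.9, 119 and 139.9 in saline mutants and 134.9, 142 and 127.5 with UNC0642. Its UNC0642 libraries lay above the wild-type ones and overlapped the saline mutants.

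Hnrnph2, the X-linked paralogue of Hnrnph1, had 138.7, 136.7 and 117.2 RPM in wild type, 138.4, 142 and 153.2 in saline mutants and 157.2, 148 and 146.3 with UNC0642. Its UNC0642 libraries lay above all wild-type ones and overlapped the saline mutants. The log2 difference of UNC0642 mutant from wild type was 0.21 in the reads (SE 0.08, limma-voom adjusted p = 0.220), whereas for Hnrnph1 it was -0.25 (SE 0.09, adjusted p = 0.181).

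Rbfox1, an activator and repressor of neuronal exons, had 286.3, 284.1 and 235.9 RPM in wild type, 222.2, 222 and 223.3 in saline mutants and 213.2, 222.9 and 228.4 with UNC0642. All 6 mutant libraries, UNC0642 replicate 3 included, lay below the 3 wild-type ones, which themselves were spread from 235.9 to 286.3. The log2 difference from wild type was -0.27 for UNC0642 (SE 0.08, limma-voom adjusted p = 0.152) and -0.27 for saline mutants (SE 0.08, adjusted p = 0.0522).

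Leaving out UNC0642 replicate 3 gave 8 members called between UNC0642 mutant and wild type (limma-voom), against 20.5% of all genes. Celf6, Celf3 and Srsf5 rose, by 0.45, 0.25 and 0.24 on the log2 scale. Srsf10, Ptbp3, Celf2, Rbfox1 and Hnrnph1 fell, at log2 changes of -0.45, -0.45, -0.31, -0.30 and -0.28. This alternative leaves 2 UNC0642 libraries, both on the saline mutant side of the division.

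A few pairs of members varied closely together among the libraries, while most did not. After removal of each group's mean over the 9 libraries, Srsf1 correlated with Srsf7 at r = 0.96, Hnrnph1 with Srsf1 at 0.96 and with Srsf7 at 0.93, and Srsf10 with Srsf11 at 0.92. The lowest value was -0.94 between Nova1 and Srsf5. The median over pairs was 0.34 for Srsf, 0.21 for Celf, -0.01 for Hnrnp, -0.05 for Rbfox, 0.04 for Ptbp and 0.09 for all 990 pairs of members, and the pairs named are the extremes of these. These points share 9 libraries and their depth, and the values are descriptions of them. UNC0642 replicate 3 lay apart from replicates 1 and 2 in Nova1 (48.53, 50.77 and 61.44 RPM) and Srsf5 (193.7, 193.4 and 157.3). Its distance from its group mean enters every r. No correlations among other genes are given for comparison.

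Lists of other genes of splicing were read in the same fits. They were chosen with earlier results of these data known, so their shares called are no independent check. Of the SR protein kinases and SR-related genes, 9 of 22 fell between saline mutant and wild type in the recovered reads and 0 rose (limma-voom), against 6.71% of all genes called lower and 5.71% higher, with a median log2 difference of -0.26 against 0.00 over all genes. Clk1, a kinase of SR proteins, had 91.75, 118.8 and 141.4 RPM in wild type, 53.37, 70.26 and 68.33 in saline mutants and 70.38, 75.11 and 107.4 with UNC0642. The wild-type and saline mutant libraries did not overlap, and the log2 fold change was -0.86 (SE 0.17, limma-voom adjusted p = 0.0179). Srek1 fell by 0.67 and Prpf4b by 0.38 on the log2 scale.

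Of other splicing regulators, 8 of 43 fell and 0 rose (limma-voom), among them Mbnl1, which controls developmental exon switches (-0.58), Sfpq, a paraspeckle protein (-0.53), and Fubp1 (-0.49). Of the U1, U2 and Sm protein genes, 3 rose and 4 fell of 29, with the branch-point factor Sf3b1 at -0.36, Luc7l3 at -0.39 and the U1 protein gene Snrpc at 0.71. Of the U4, U5 and U6 protein genes 1 of 23 was called, Prpf31 at 0.54, a count below the 12.4% of all genes called, and Lsm7 and Cd2bp2 followed at 0.37 (limma-voom adjusted p = 0.102) and 0.24 (adjusted p = 0.106). The median log2 difference in the reads was 0.16 for the U1, U2 and Sm list, with 20 of 29 genes above 0. For the U4, U5 and U6 list it was 0.19, with 18 of 23 above 0. With the division as a term these medians were -0.03 and -0.01, and in the deposited values -0.02 and 0.02. In the deposited values 0 genes of these 4 lists were called and 0 had an unadjusted p under 0.05 (limma). The shares of all genes were 0% and 0.132%. Because of the adjustment, these values carry no separate measurement of the saline mutants. With the division as a term, 0 were called and 0 had an unadjusted p under 0.05 (limma-voom).

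**Figure D4:**
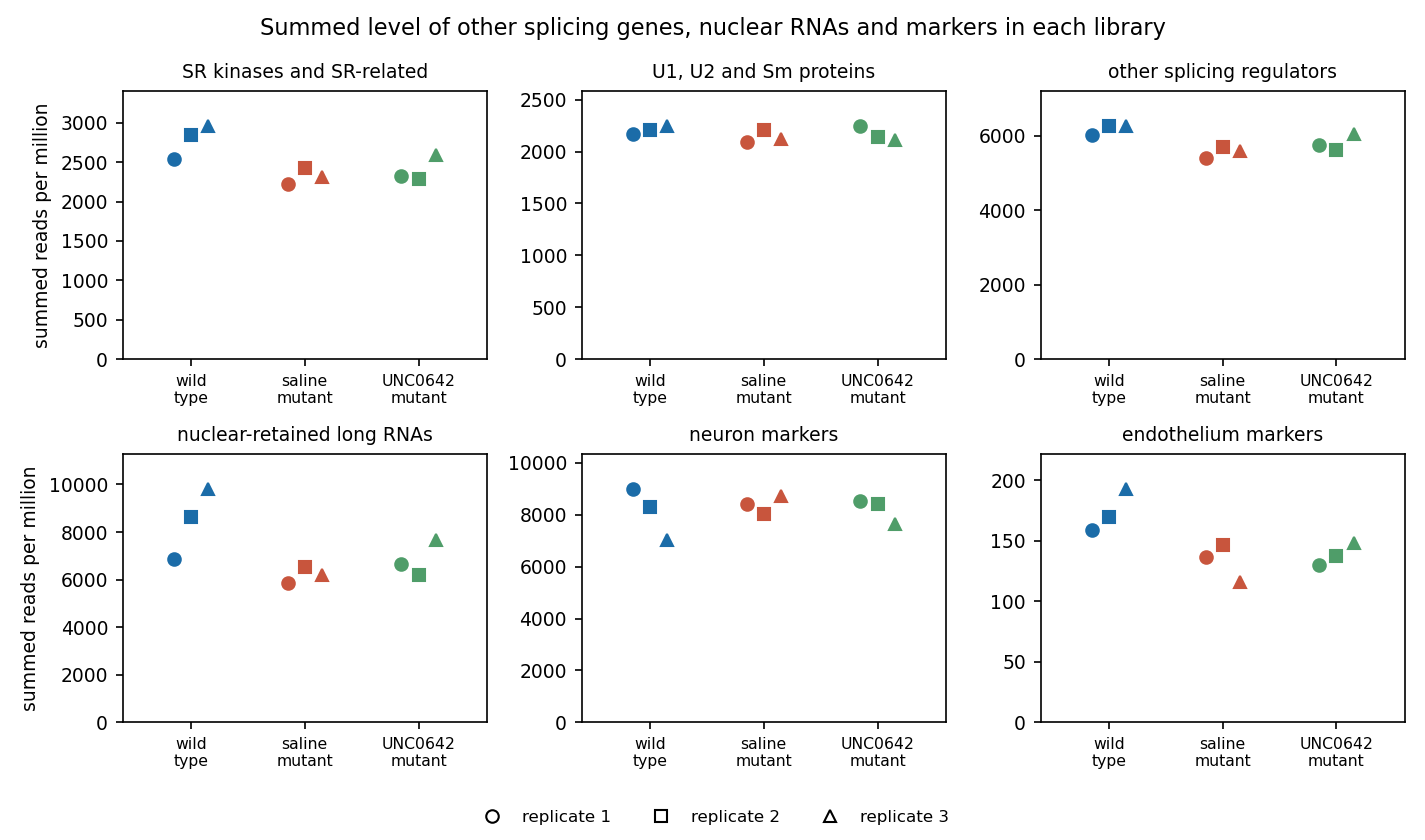
Summed RPM in each library (marker shape gives the replicate) for 4 lists of splicing and nuclear genes and 2 lists of cell type markers, each axis starting at 0. The SR kinase list sums to 2546 to 2965 in wild type and 2225 to 2429 in saline mutants, and the U1, U2 and Sm list to 2166 to 2250 and 2093 to 2208. In the latter list 20 of 29 genes had a log2 difference above 0, so its sum does not give the direction of most of its genes.

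Long RNAs that stay in the nucleus form a list likewise chosen with earlier results of these data known. They were also lower in the recovered reads of the saline mutants. Their list summed to 6858 to 9817 RPM in wild type, 5865 to 6517 in saline mutants and 6196 to 7680 with UNC0642, and 6 of its 10 measured genes fell between saline mutant and wild type (limma-voom), with Snhg11 at -0.66, Neat1 at -0.71 and Kcnq1ot1 at -1.14, against 6.71% of all genes called lower. The list's median log2 difference was -0.64 in the reads, -0.17 with the division as a term and -0.14 in the deposited values, with 0 genes called in both of the latter (limma-voom, limma) and 1 and 0 at an unadjusted p under 0.05. Endothelium markers summed to 159.3 to 193.1 in wild type and 115.8 to 146.7 in saline mutants, with 1 of 5 called lower, and oligodendrocyte markers to 2912 to 4689 and 1480 to 3388, with 0 of 6 called (limma-voom; 4 at an unadjusted p under 0.05). Neuron markers, a list that holds the member Rbfox3 and so is not separate from the members, overlapped at 7045 to 8998 and 8018 to 8739, with 1 of 8 higher and 2 lower. All 8 neuron markers were measured in every library, as the cortex label calls for, and the 5 striatum markers summed to 111.1 to 136.9 in wild type and 92.78 to 108.9 in saline mutants. Astrocyte, oligodendrocyte precursor, microglia, meninges and striatum markers had 0 genes called (limma-voom), with 1, 1, 0, 0 and 1 at an unadjusted p under 0.05. All 6 meninges markers had a log2 difference above 0 in the saline mutants, with a median of 0.46 in the reads and 0.40 in the deposited values. With the division as a term that median was 1.04, with 5 of 6 at an unadjusted p under 0.05 (limma-voom). In the same fit UNC0642 mutant against wild type gave 0.97 with 6 of 6, and neither comparison had a call. The sums overlapped, at 48.96 to 76.7 RPM in wild type and 67.77 to 74.42 in saline mutants. The fit with the division rests on UNC0642 replicate 3, whose sum of 114.8 was the highest of the 9 libraries. Immediate-early genes, which neuronal activity induces, had 5 of 14 called higher and 2 lower (limma-voom), against 5.71% and 6.71% of all genes. Their median log2 difference was 0.27 in the reads, 0.17 with the division as a term and -0.09 in the deposited values. In both of the latter 0 were called (limma-voom, limma), against 0% of all genes in each. For all these lists the deposited values carry no separate measurement of the saline mutants. The part of nuclear RNA and of the cell mixture in the members' differences was not tested.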

How the data were processed

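Per the submitters' processing notes, cutadapt, TopHat2, HTSeq and the mm9 build were used; tool versions, normalization and strand counting were not found in the labels. The authors' deposited table gives 1 signal value per gene and library, named CPM, but its values carry an adjustment between 2 sets of libraries, and all 9 single-library files equal the matrix. Whole reads were solved back gene by gene (tolerance 0.001 reads, mean prior 3.0 reads), with 100% of genes giving a single solution.

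The main reading was a trended limma fit (version 3.58.1, in R 4.3.3) of log2(value + 0.5) with group as the term over all 9 libraries. The second was limma-voom on the recovered reads with TMM factors. The calls used Benjamini-Hochberg adjustment over 14444 genes and an adjusted p under 0.05. Depth was 12035098 to 16165483 reads per library; levels were divided by exon length from GENCODE M21, a later build than the reads were mapped to. The solving of reads was tested on simulated reads with the library sets and priors given, so finding these was not tested. The fits were tested on simulated reads that held neither the adjustment nor the library division. Within each group no library duplicated another: the chi-square per gene between replicates was 4.38 to 22.5. Libraries of different groups were not compared in this way.

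Members and lists were chosen with earlier results of these data known. Per comparison, members called were named, then the 6 of smallest p in each reading, the highest and lowest of each family, Ptbp1, Ptbp2, the Rbfox and Nova genes, up to 3 genes of smallest p from each other splicing list (given for saline mutant against wild type in the reads), and Shank3, Ehmt1 and Ehmt2. Genes singled out elsewhere were chosen after their values were seen. Alternatives were other pseudocounts, low-value filters, other size factors, only the 2 groups compared, a replicate block, the library division as a term and leaving out each library.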

Additional observations from a re-analysis of the deposited data

How the results depend on the processing

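In the deposited values no member was called, so no call could change sign in the 630 combinations of member and alternative per comparison. Uncalled members changed sign in 52 (saline mutant against wild type), 58 (UNC0642 against saline mutant) and 43 (UNC0642 against wild type). In the recovered reads, with 675 combinations each, these counts were 30, 56 and 56. Calls between saline mutant and wild type were lost in 66 combinations, gained in 11 and reversed in 0. UNC0642 against saline mutant had no call that could reverse. Between saline mutant and wild type, the recovered reads gave 1794 genes called, 3162 with only the 2 groups compared, 0 with the division as a term and 14 to 3619 on leaving out a library; members called were 10, 0 with the division and 0 to 13 on leaving out a library. The deposited values gave 0 genes and 5 with only the 2 groups. Between UNC0642 mutant and wild type, the reads gave 11 genes, 2 with only the 2 groups, 5 with the division and 1 to 2958 on leaving out a library, with 0 to 8 members, and the deposited values 0 to 4 on leaving out a library. The cause of these changes was not tested. Fits of fewer libraries also differ in their number of samples. Deviations of same-numbered replicates correlated at -0.19 to 0.32. With 3 libraries per group these values cannot settle whether the numbers pair the libraries, and the labels do not state a pairing. A replicate block gave 2441 genes and 11 members called between saline mutant and wild type, and 50 genes between UNC0642 mutant and wild type. Depth limits the lowest member, Hnrnpa1, and the 3 libraries per group limit every comparison.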

Other observations

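Gm5643, an annotated processed pseudogene copy of Hnrnpa1 that shares 27.6% of the 50-base windows of that gene, had 0, 1 and 0 reads in wild type, 40, 52 and 71 in the saline mutants and 54, 76 and 0 with UNC0642. Its reads were thus near 0 in all of wild type as well as in UNC0642 replicate 3, the library that the first principal component places with them. Hnrnpa1 itself did not divide the libraries in this way.

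Thap6, annotated as a unitary pseudogene, is the other measured pseudogene that shares windows with a member, at 0.0823% of those of Hnrnpr, and it had 32, 46 and 36 reads in wild type, 41, 46 and 49 in saline mutants and 37, 67 and 60 with UNC0642.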
